A study of Mus musculus with 8 samples.

Results

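Rbpms, Rbpms2 and Gm3470 were examined in platelet RNA of TNFdARE and control mice. They are the 3 rows with these symbols among the 43548 genes of the deposited table. Rbpms and Rbpms2 are paralogous protein-coding genes, and Gm3470 is an annotated processed pseudogene whose sequence is that of Rbpms2. Gm3470 was chosen by its FPKM values, which were lower in TNFdARE mice than in controls. Its genotype difference, and that of any sum or share that contains it, is therefore given as a description without a test. TNFdARE mice lack the AU-rich elements of the Tnf transcript and have constitutively elevated TNF-α, and they were backcrossed with C57BL/6J mice. The 8 platelet samples came from 4 TNFdARE mice (genotype TNFdAre +) and 4 littermate controls (TNFdAre -), with 2 females and 2 males in each group, aged 8 to 12 weeks and labelled as baseline for treatment. The labels contradict themselves on the number, age and sex of the mice, since a shared protocol text names older males only. The numbers and sexes of the single sample entries and the age range of the methods were used, and the sex contrast rests on those entries. The allele is carried by the whole animal and is not restricted to platelets or MKs.

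Proteins of the Rbpms family carry an RNA recognition motif and bind RNA that holds CAC motifs. Rbpms, also named hermes, is known as a regulator of alternative splicing in smooth muscle cells and is expressed in heart and retinal ganglion cells, and Rbpms2 is known from smooth muscle precursors and heart. Platelets have no nucleus and inherit their mRNA from megakaryocytes (MKs). A processed pseudogene is a copy of a spliced mRNA that was reverse transcribed and inserted elsewhere in the genome, so it lacks the introns of its parent gene.

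In its GENCODE model, the copy is nearly indistinguishable in sequence from the stretch of its parent that it matches. In GENCODE M21, on the mm10 build (GRCm38), Rbpms2 (ENSMUSG00000032387) spans chr9:65629648-65660528 on the plus strand, Rbpms (ENSMUSG00000031586) spans chr8:33782643-33929863 on the minus strand, and Gm3470 (ENSMUSG00000089659) spans chr5:99021803-99022222 on the minus strand. Gm3470 lies within Prkg2, a kinase gene of the same strand. No exon of Prkg2 overlaps it, and the nearest is 2171 bases away. The single transcript of Gm3470 is 420 bases long in 1 exon. It aligned over its whole length to bases 472 to 891 of the 1987-base transcript of Rbpms2, with 1 mismatch (99.8% identity). This stretch runs to the stop codon at the end of the Rbpms2 coding sequence, which starts at base 271. RefSeq gives Gm3470 a longer model of 1091 bases on the same build, chr5:99021672-99022762, which reaches 540 and 131 bases beyond the GENCODE model.

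The following stretches of 61 bases were taken 5′ to 3′ from the GENCODE M21 transcripts. They hold the only base by which the GENCODE model of the copy differs from its parent. That base is C164T, counted from the 5′ end of the Gm3470 transcript, with the Rbpms2 base first. The capital letter marks that base.
Rbpms2: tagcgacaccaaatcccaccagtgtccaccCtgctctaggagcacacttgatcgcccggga
Gm3470: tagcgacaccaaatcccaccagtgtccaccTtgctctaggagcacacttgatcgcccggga

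The aligned stretch of Rbpms2 crosses 3 of the 7 exon junctions of this Rbpms2 transcript, which Gm3470 carries as continuous sequence. The next lines show 40 bases around one of them, where the capitals mark the last base of an Rbpms2 exon and the first base of the next.
Rbpms2: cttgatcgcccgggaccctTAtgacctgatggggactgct
Gm3470: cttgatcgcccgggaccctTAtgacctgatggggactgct

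Libraries were sequenced as dual-pass 150 bp reads. The windows counted here stand for single reads, not for the whole fragments that FPKM counts. Of the 271 windows of 150 bases in Gm3470, 121 (44.6%) were identical to Rbpms2, and the others differed from it by the single mismatch. Of the same 271 windows of the Rbpms2 stretch, 11 lay within 1 exon. In the others, a read from Rbpms2 has to be split over an intron to align to Rbpms2 in the genome, whereas the same read lines up with Gm3470 without a split. The stretch makes up 21.1% of the Rbpms2 transcript, and the rest of it has no counterpart in the GENCODE model of the copy. The further bases of the RefSeq model were not aligned. No other gene's transcript matched Gm3470, Rbpms2 or Rbpms at 95% identity over at least 100 bases. Rbpms itself is well separated in sequence, because its coding sequence of 660 bases was 71.2% identical to that of Rbpms2 over 608 aligned bases. How the authors' software assigned fragments that fit both Rbpms2 and Gm3470 is not given in the sources used here, so single values of either are uncertain.

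**Figure D1:**
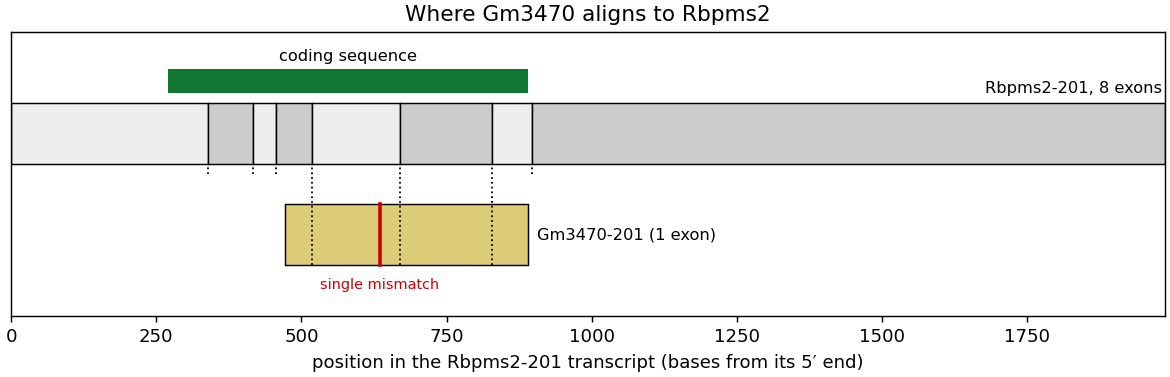
The 1987-base Rbpms2 transcript drawn to scale in bases from its 5′ end, with its 8 exons in alternating grey, its coding sequence in green and the aligned Gm3470 transcript in yellow. The copy covers the last 420 bases of the coding sequence, crosses 3 exon junctions (dotted lines) and holds 1 mismatch (red).

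The values were read as FPKM, fragments scaled to transcript length and library size, and read depth could not be recovered from them. Genes above 0 numbered from 1479 to 2742 in controls and from 818 to 4917 in TNFdARE mice, with the fewest in TNFdARE mice 1 (818) and 4 (1225). The locus AY036118 alone took up 33.7% to 67.7% of all FPKM in a library. All 20 platelet and MK marker genes of the list were above 0, and their summed FPKM was 1422 to 1968 in controls and 1434 to 1569 in TNFdARE mice. Of the other lists, 2 of 7 T cell, 4 of 8 smooth muscle and 3 of 6 endothelial markers were above 0 in any library, with sums of at most 1.02, 6.90 and 2.70 FPKM, while Cd3e, Myh11 and Cdh5 were at 0 in all 8. The neutrophil list reached 10.3 FPKM and the B cell list 25.3 FPKM. The monocyte and macrophage list, with 2 of 7 markers above 0 and Cd14 and Cd68 at 0, summed to 30.8 to 50.3 FPKM in controls and 12.0 to 36.1 FPKM in TNFdARE mice. The summed erythroid markers were 755 to 2205 FPKM in controls and 1115 to 14672 FPKM in TNFdARE mice. Their highest values were in TNFdARE mouse 4 and TNFdARE mouse 1 (6937), the mice with the fewest genes above 0.

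Rbpms was listed at 0 FPKM in all 8 libraries. The genes overlapping it, Gm26632 on the other strand and Gm26978 in an intron, were also at 0 in every mouse. Hprt, which most cells express, was at 0 in all 8 libraries as well, so a listed 0 does not show that Rbpms mRNA is absent from platelets. Rbpms did not enter the tests, and 2 of the 3 genes had the mean of at least 1 FPKM required for them.

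Rbpms2 was detected in every mouse. In bulk platelet RNA, fewer platelets holding a transcript and less of it per platelet cannot be told apart. Its FPKM was 0.447, 5.76, 5.64 and 5.37 in control mice 1 to 4, whereas TNFdARE mice 1 to 4 had 3.89, 9.97, 8.98 and 4.85. Apart from control mouse 1 the controls were close to each other, TNFdARE mice 2 and 3 lay above all controls, and TNFdARE mice 1 and 4 lay between control mouse 1 and the other controls. The mean was 4.31 ± 2.58 FPKM in controls and 6.92 ± 3.00 FPKM in TNFdARE mice (SD, n = 4 each), a ratio of 1.61. The difference was smaller than the spread between mice (log2 fold change 0.73 on the log2(FPKM + 1) scale, 95% confidence interval -0.77 to 2.23, limma, adjusted p = 0.86 by Benjamini-Hochberg over 1534 genes). Permuting the genotype labels in every possible way (exact, two-sided) gave p = 0.29 for the difference in mean FPKM, where the smallest p that 4 against 4 mice allow is 0.029. The log2 fold change was 0.18 without control mouse 1. Because fragments may be exchanged with Gm3470, the value of Rbpms2 is not independent of the row that was picked.

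The rank of Rbpms2 among the genes above 0, counted from the highest, was 1331, 558, 598 and 550 in control mice 1 to 4. In TNFdARE mice 1 to 4 the rank was 534, 338, 344 and 525. The share of genes below Rbpms2 also depends on the number of genes above 0, which was 818 to 4917 per library. Rbpms2 was higher than 74.0% to 79.9% of them in control mice 2 to 4 and than 10.0% in control mouse 1. In TNFdARE mice 1 to 4 it was higher than 34.7%, 89.4%, 93.0% and 57.1% of the genes above 0.

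Gm3470, the copy, was listed above its parent in all 4 controls and in 1 of 4 TNFdARE mice. Its FPKM was 63.0, 28.8, 17.6 and 22.4 in control mice 1 to 4, whereas TNFdARE mice 1 to 4 had 0, 5.85, 16.1 and 0. All 4 TNFdARE mice were below all 4 controls, but TNFdARE mouse 3, at 16.1 FPKM, came close to control mouse 3, at 17.6 FPKM. This is the pattern for which the gene was picked. Among the 1534 genes tested, the groups did not overlap for 3.32%, including 2.48% with TNFdARE lower. The log2 fold change of Gm3470 was -3.20 (standard error 0.90, on the log2(FPKM + 1) scale). It was -4.88 with a pseudocount of 0.1, and -1.99 with one of 5. With limma's sample weights, which give less weight to libraries that deviate more, it was -1.36.

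The 2 values of 0 were in the TNFdARE libraries with the fewest genes above 0. Of the 1534 genes tested, 31.7% were listed at 0 in both of these mice, and 111 genes (7.24%), Gm3470 among them, were at 0 there and above 0 in the other 6 mice. The erythroid marker sum was highest in the same 2 mice, and 6 of the 8 erythroid markers tested were higher in TNFdARE mice at an unadjusted p under 0.05, against 1.76% of all genes tested (0 at an adjusted p under 0.05, limma). Of the 11 erythroid markers with values, 10 were above 0 in some library, and only Klf1 was at 0 in all 8 libraries. The monocyte and macrophage sum was lowest in the same mice, at 12.0 FPKM in TNFdARE mouse 1 and 18.1 FPKM in TNFdARE mouse 4. The smooth muscle sum was highest in control mouse 1 (6.90 FPKM), where Gm3470 was highest, and at 0 in TNFdARE mice 1 and 4 but also in control mouse 3. The part of library depth or of RNA of other cells in the Gm3470 values was not tested.

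**Figure D2:**
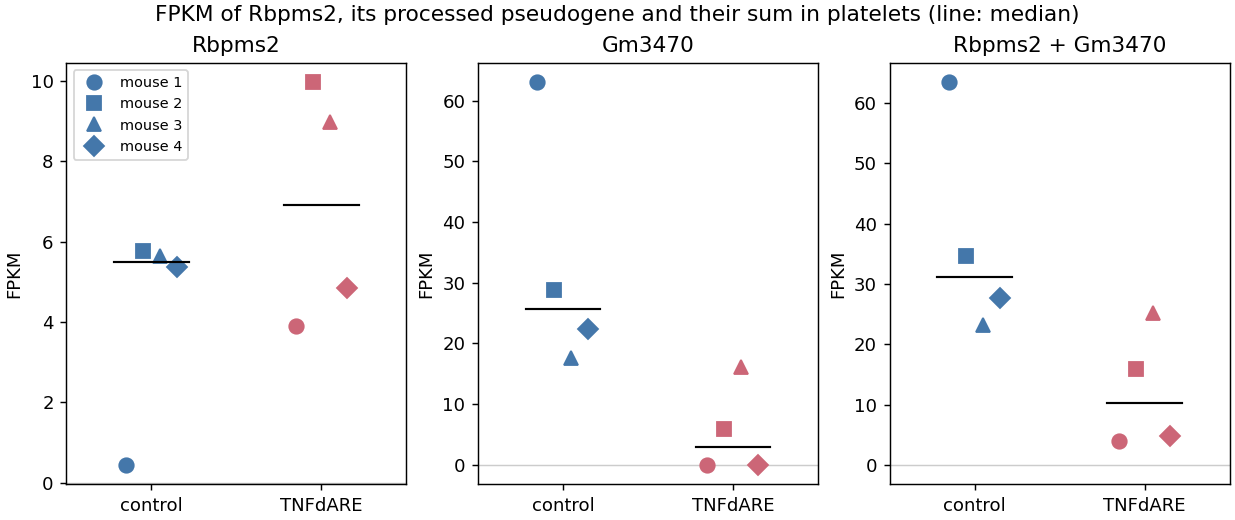
FPKM of Rbpms2, Gm3470 and their sum in each mouse, with controls in blue and TNFdARE mice in red, a horizontal line for the median of each group, and marker shapes for mouse numbers, which showed no pairing of the groups. Rbpms2 overlaps between groups with control mouse 1 lowest at 0.447 FPKM, Gm3470 is lower in all 4 TNFdARE mice, and the sum overlaps.

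When the FPKM of Rbpms2 and Gm3470 were added, the groups overlapped. The sum was 63.5, 34.6, 23.2 and 27.7 FPKM in control mice 1 to 4, whereas TNFdARE mice 1 to 4 had 3.89, 15.8, 25.1 and 4.85 FPKM. TNFdARE mouse 3 exceeded control mouse 3, and the other 3 TNFdARE mice lay below every control. The median sum was 31.2 FPKM in controls and 10.3 FPKM in TNFdARE mice, and the log2 fold change was -1.75 (standard error 0.64, on the log2(FPKM + 1) scale). It was -0.67 with sample weights and -1.09 without control mouse 1 and TNFdARE mouse 1. The summed FPKM was dominated by the copy, which contributed 99.3%, 83.3%, 75.7% and 80.7% in control mice 1 to 4, whereas TNFdARE mice 1 to 4 had 0%, 37.0%, 64.3% and 0%.

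A sum of FPKM gives the 420-base copy the same weight as the 1987-base parent, although 1 fragment raises the FPKM of a short transcript more. The values were therefore also multiplied by the annotated length in kb, which gives an amount in proportion to the fragments of a gene, before they were added. This length-weighted sum was 27.4, 23.6, 18.6 and 20.1 in control mice 1 to 4, whereas TNFdARE mice 1 to 4 had 7.73, 22.3, 24.6 and 9.64. TNFdARE mice 2 and 3 fell within the range of the controls, and TNFdARE mice 1 and 4 lay below it. The median was 21.8 in controls and 16.0 in TNFdARE mice, a ratio of 0.731. The log2 fold change was -0.59 (standard error 0.54, on the log2(length-weighted value + 1) scale), against -0.66 with the 1803-base transcript of Rbpms2 and -1.75 for the plain sum. The weighting was added after the values were seen. It uses annotated lengths, whereas the effective lengths behind the deposited estimates are not given in the sources used here. For the copy only the 420-base GENCODE length was used. With the 1091-base RefSeq model, which was not tried, the copy would weigh more in each sum. How far the groups overlap in this sum therefore depends on the length taken for the copy.

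Within the length-weighted sum, the copy made up 96.8%, 51.4%, 39.7% and 46.8% in control mice 1 to 4, whereas TNFdARE mice 1 to 4 had 0%, 11.0%, 27.5% and 0%. No TNFdARE mouse reached the share of the copy seen in any control. This is a description only, since the share contains the row that was picked for being lower in TNFdARE mice. The total of copy and parent overlapped between the groups. Among the controls, control mouse 1 had the highest Gm3470 (63.0 FPKM), the lowest Rbpms2 (0.447 FPKM) and the highest length-weighted sum (27.4). Over the 8 mice Pearson's r between Rbpms2 and Gm3470 on the log2(FPKM + 1) scale was -0.27, and without control mouse 1 it was 0.45. The points share libraries and possibly fragments. The deposited values cannot tell apart RNA transcribed from Gm3470 and Rbpms2 fragments assigned to it. Prkg2, in whose intron the copy lies, was listed at 0 in all 8 libraries.

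**Figure D3:**
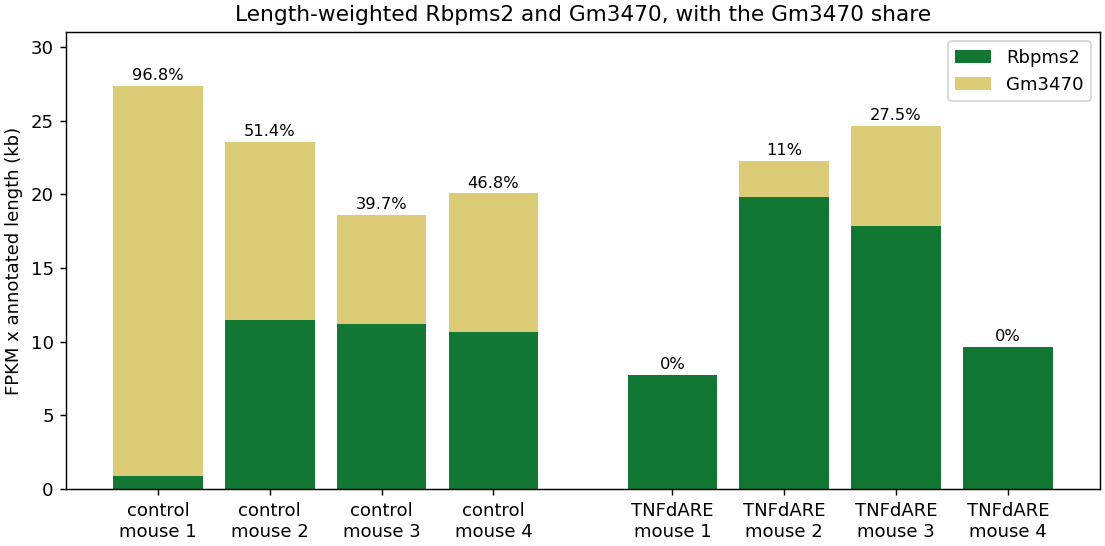
FPKM multiplied by annotated transcript length in kb for Rbpms2 (green) and Gm3470 (yellow), stacked for each mouse, with the share of Gm3470 printed above each bar. The totals of TNFdARE mice 2 and 3 are 22.3 and 24.6, within the control range of 18.6 to 27.4. The share of the copy is 27.5% or less in all TNFdARE mice against 39.7% or more in controls. That share contains the row picked for being lower in TNFdARE mice, and the 420-base GENCODE length was used for the copy.

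Sex was not used to pick these genes and is balanced over genotype. Rbpms2 was 5.16 ± 3.89 FPKM in the 4 females and 6.07 ± 2.12 FPKM in the 4 males (SD), with a log2 difference of female minus male of -0.47 (95% confidence interval -2.05 to 1.10, adjusted p = 0.95, limma with genotype in the model). Gm3470 ranged from 0 to 63.0 FPKM in females and from 0 to 28.8 FPKM in males, with a log2 difference of 0.03 (95% confidence interval -1.99 to 2.04, adjusted p = 0.99, limma). For the sum, the log2 difference was 0.18 (95% confidence interval -1.28 to 1.65). No sex difference larger than the spread between mice was detectable with 4 mice of each sex. In this contrast 39 of the 1534 genes (2.54%, of which 1.24% higher and 1.3% lower in females) had an unadjusted p under 0.05, neither Rbpms2 nor Gm3470 among them, and 0 had an adjusted p under 0.05. The genotype effect did not differ detectably between the sexes for Rbpms2 (difference of log2 fold changes, female minus male, 1.34, standard error 1.52, adjusted p = 0.92, limma).

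The genes whose pattern over the 8 mice was most like that of Rbpms2 included known platelet receptors. Among 1283 genes with a mean of at least 1 FPKM and a value above 0 in at least 4 libraries, the 5 with the highest Pearson's r on the log2(FPKM + 1) scale were Gp9 (0.87), Tmem140 (0.86), Clec1b (0.85), Cap1 (0.84) and H2-T24 (0.84). Gp9 encodes a subunit of the von Willebrand factor receptor, Clec1b the podoplanin receptor CLEC-2, and Cap1 an actin-binding protein. Gp9 was at 28.3, 88.5, 117.6 and 59.4 FPKM in control mice 1 to 4 compared with 83.2, 138.7, 98.9 and 122.6 FPKM in the TNFdARE mice. Control mouse 1 was lowest in Gp9 as in Rbpms2. Without that mouse, r was 0.44 for Gp9, 0.32 for Clec1b and 0.03 for Cap1, so these likenesses rest largely on it. The r of Tmem140 (0.55) and H2-T24 (0.76) fell less. Clec1b shares 185 bases with the transcript of Clec9a.

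Gm3470 was most like Ppp1r15b (0.99), Stk4 (0.98), Guf1 (0.98), Sdccag8 (0.97) and Gm15648 (0.97) among the same 1283 genes. Ppp1r15b encodes a regulatory subunit of a phosphatase that acts on the translation factor eIF2α, Stk4 a kinase of the Hippo pathway, and Guf1 a mitochondrial translation factor. Of these 5 genes, 4 were at 0 in TNFdARE mice 1 and 4, like Gm3470. The exception was Guf1, at 0.180 FPKM in TNFdARE mouse 1 and at 0 in TNFdARE mouse 4. Ppp1r15b, at 5.05, 3.21, 2.40 and 3.12 FPKM in control mice 1 to 4 and 1.79 and 2.95 FPKM in TNFdARE mice 2 and 3, followed the order of Gm3470 in the controls. Among the controls, both were highest in control mouse 1 and lowest in control mouse 3. The sum was most like Stk4 (0.99), Ppp1r15b (0.99), Gm26582 (0.97), Acer2 (0.97) and Guf1 (0.97). Transcripts of Ppp1r15b, Guf1, Sdccag8 and Gm26582 share stretches of at least 100 bases at 95% identity or more with another annotated gene.

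Other RNA-binding proteins were compared as a group of the same kind, with lists written with earlier results of these data known. Of 63 splicing regulators, all in the table, 9 had a mean of at least 1 FPKM. With an unadjusted p under 0.05, 0 rose and 0 fell in TNFdARE platelets, beside 4.5% of all genes tested (1.76% higher and 2.74% lower), and 0 passed an adjusted p under 0.05 (limma). Their median log2 fold change was -0.20, beside -0.30 for all genes tested. The most abundant was Mbnl1, a splicing regulator known from myotonic dystrophy, at 14.3 to 37.4 FPKM in controls and 4.56 to 67.3 FPKM in TNFdARE mice (log2 fold change -0.20, standard error 0.71). Nono, a component of nuclear paraspeckles, was at 9.20 to 48.3 FPKM in controls and 0 to 28.9 FPKM in TNFdARE mice (log2 fold change -1.88, standard error 1.01). Rbm38 was at 0.638 to 11.8 and 0 to 16.1 FPKM, and Celf2 at 0.938 to 1.98 and 0.676 to 14.3 FPKM, in controls and TNFdARE mice. The groups overlapped for each of these 4 genes. The FPKM of Rbpms2, a level per transcript length, was below that of Mbnl1 in every mouse except TNFdARE mouse 4, where Rbpms2 was 4.85 FPKM and Mbnl1 4.56 FPKM.

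Among 44 proteins that bind mRNA to control its stability or translation, 43 were in the table and 7 were tested, of which 0 passed an unadjusted p under 0.05 in either direction (limma), beside 4.5% of all genes tested. Their median log2 fold change was 0.39, beside -0.30 for all genes tested. With so few genes tested, neither list's count can be told apart from that background. Atxn2, a polyadenylate-binding partner, was at 2.88 to 55.3 FPKM in controls and 0 to 28.2 FPKM in TNFdARE mice, with 0 again in TNFdARE mice 1 and 4 (log2 fold change -2.40, standard error 1.15). Ybx1, a cold-shock protein that packages mRNA, was at 8.66 to 31.4 and 15.6 to 27.0 FPKM. Pabpc1, the cytoplasmic poly(A)-binding protein, was at 8.05 to 13.2 and 2.82 to 27.8 FPKM. Fxr2, a relative of the fragile X protein, was above 0 only in TNFdARE mouse 4, at 15.6 FPKM. It was among the 7 tested genes, and so in their median, through that library alone. Nono, Rbm38, Ybx1 and Pabpc1 may be uncertain too, because each shares at least 100 bases at 95% identity or more with another annotated gene. Whether these matches are copies elsewhere or genes that overlap in the genome was not checked.

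Rbpms proteins have been linked to SMAD transcription factors, which transmit TGF-β and BMP signals. Of 19 genes of that pathway, 5 were above 0 in any library and 1 was tested. The tested gene was the ligand Tgfb1, which platelets store in their granules, at 22.8 to 32.6 FPKM in controls and 21.4 to 96.3 FPKM in TNFdARE mice (log2 fold change 0.37, standard error 0.54, adjusted p = 0.89, limma). The highest value was in TNFdARE mouse 1, and the other TNFdARE mice were at 21.4 to 30.4 FPKM. Of the 19 genes, 14 were listed at 0 in all 8 libraries, among them Smad3, Smad4, Smad5 and the receptors Tgfbr1 and Tgfbr2. Smad1 and Smad2 were above 0 in some library. As with Hprt, a listed 0 does not show absence.

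**Figure D4:**
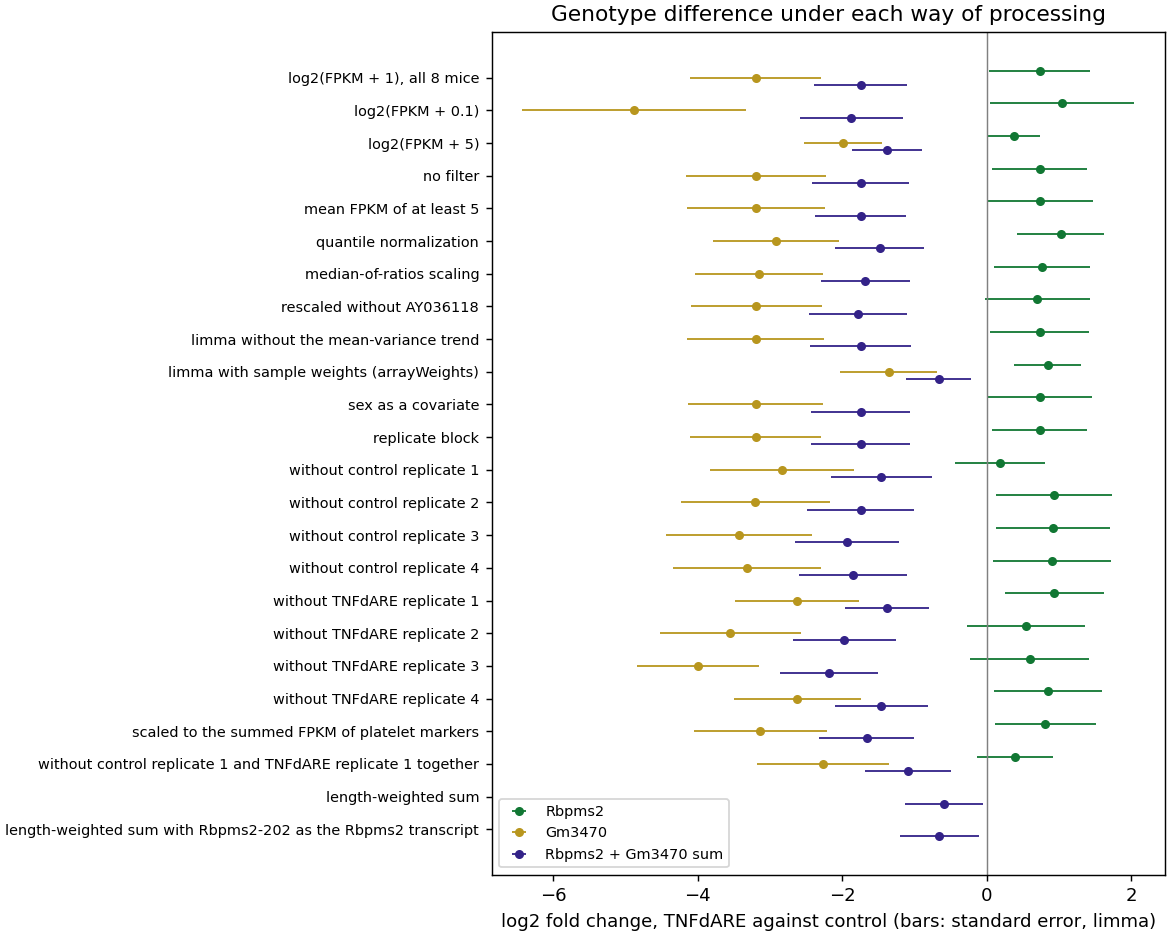
Log2 fold change of TNFdARE against control for Rbpms2 (green), Gm3470 (yellow) and their sum (blue) under each way of processing, with standard errors from limma. Rbpms2 stays above 0 (0.18 to 1.04) and Gm3470 below 0 (-4.88 to -1.36) throughout, and the sum moves closest to 0 when it is weighted by length (-0.59). Gm3470 was picked for being lower in these values, so the direction of Gm3470 and of the sum is descriptive only.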

How the data were processed

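Platelet RNA of 4 TNFdARE and 4 control mice was sequenced by the authors, and 1 table of values per gene and mouse was deposited. The values deposited by the authors were taken as FPKM, a unit inferred from the non-integer values and from Cufflinks, which the submitters' processing notes name with the build mm10. Tool versions, the gene annotation and the handling of fragments that align to several places are not given in the sources used here. The reads per library are unknown, so no counting error could be given. The number of value columns left unmapped was 0.

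Samples were grouped by genotype label. Genes with a mean of at least 1 FPKM (1534 of 43548) were log2-transformed with a pseudocount of 1 and tested by linear models (R 4.3.3, limma 3.58.1, empirical Bayes with a mean-variance trend, Benjamini-Hochberg adjustment), and the code was tested on simulated data. The sex contrast had genotype in the model. Single genes were also compared by a two-sided exact permutation test. P-values set a difference against the spread between these 8 samples. Transcripts of GENCODE M21 were aligned with BLAST 2.17.0 and Biopython 1.88 (at least 95% identity over at least 100 bases), and figures were drawn with matplotlib 3.10.9. Other pseudocounts, filters, scalings, models and sets of mice were tried. Length weighting, scaling to platelet markers and leaving out 2 mice together were chosen after seeing the data.

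The members and gene lists were chosen with earlier results of these data known. Genes named are the members, the 4 tested genes of highest mean FPKM and any with an unadjusted p under 0.05 in each of the splicing, mRNA stability and SMAD lists, and the 5 genes most correlated with each member or the sum. Hprt, AY036118, genes of the SMAD list that were not tested, cell type markers and genes overlapping or sharing sequence with a member or a named gene were named outside this rule, after their values were seen. Rbpms could not be fitted because all its values were 0. Whether equal mouse numbers pair the groups was checked by correlating deviations from the group means, and no pairing by number was seen. Some library names share a number across the groups, and pairing by library name or litter was not tested.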

Additional observations from a re-analysis of the deposited data

Results flagged for a closer look

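Rbpms2 in control mouse 1, at 0.447 FPKM, stood apart from the other controls at 5.37 to 5.76 FPKM. The gap to the nearest control was 0.926 of the range of the group, above Dixon's 95% critical value for 4 samples. In the same mouse Gm3470 was highest, at 63.0 FPKM. Of 10 groups of 4 mice examined, chance would give about 0.5 such samples.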

How the results depend on the processing

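Rbpms2 kept its direction under all 21 alternatives (log2 fold change 0.18 to 1.04, adjusted p 0.61 to 0.96, limma), and leaving out 1 mouse gave 0.18 to 0.93. Gm3470 stayed lower in TNFdARE under all 21 alternatives, but it was picked for being lower in these same values, so the kept direction is no support. Its log2 fold change was -4.88 with a pseudocount of 0.1 and -1.36 with sample weights, and -3.99 to -2.62 when 1 mouse was left out. The sum, which contains the picked row, stayed lower under all 23. It was at -0.67 with sample weights, -0.59 and -0.66 when weighted by length, and -2.18 to -1.38 when 1 mouse was left out. Without control mouse 1 and TNFdARE mouse 1 together, the values were 0.39 for Rbpms2, -2.26 for Gm3470 and -1.09 for the sum.

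The sex differences had no stable direction. That of Gm3470 was -0.035 after quantile normalization and -0.77 with sample weights, and -0.65 to 0.99 when 1 mouse was left out. That of the sum was -0.35 with sample weights and -0.23 to 0.74 when 1 mouse was left out, and that of Rbpms2 was -0.81 to 0.089, the latter without control mouse 1. The cause was not tested.

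Genes with an unadjusted p under 0.05 numbered 69 (27 higher, 42 lower), against 36 with a mean of at least 5 FPKM, where fewer genes were tested, 111 with sample weights (74 higher, 37 lower), and 46 (without control mouse 4) to 76 when 1 mouse was left out. Quantile normalization gave 34 higher and 25 lower, and moved the median log2 fold change of all genes from -0.30 to -0.06. Mouse numbers showed no pairing of the groups: same-numbered mice correlated at -0.07 to 0.06, and 1 of 4 controls correlated best with its own number. With the replicate number as a block, the log2 fold changes were 0.73 for Rbpms2, -3.20 for Gm3470 and -1.75 for the sum, the sex differences were -0.53, 1.94 and 1.32, and 64 genes passed. Read depth is unknown, so what it limits could not be given.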
